A study of Homo sapiens with 6 samples.

Results

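The genes described here encode the aminoacyl-tRNA synthetases, and their transcripts were followed in Capan-1 cells after silencing of GNE. A list of 35 synthetase genes was used, of which 17 act in the cytosol, 16 in mitochondria and 2, GARS1 and KARS1, in both. For 32 of the 35 the array had at least 1 probe set annotated to that gene alone, out of 19775 genes in the series with such a probe set. MARS1, QARS1 and TARS2 were represented only by probe sets annotated together with other genes and have no value here. Each of the 32 genes was read from 1 probe set, the one with the highest mean signal over the 6 arrays, and a probe set whose name ends in _x_at, which marks likely cross-hybridisation, would have been taken only where the gene had no other. The mean signal therefore chose the probe sets, and it is given as a description. All 32 had a mean log2 value above 4 and entered the test.

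Capan-1 is an established human pancreatic carcinoma line. The study has 3 arrays of cells transfected with siRNA against GNE (siGNE) and 3 arrays of cells labelled as transfected with allStar, the control. All cells of both groups were transfected 2 times, 48 h apart, and collected 72 h after the second transfection. Array titles carry the numbers 1 to 3 in each group, and a control and a siGNE array with one number form a pair. Whether the 3 arrays of a group stand for 3 cultures is not in the labels, and the p-values then cover only sample-to-sample spread, which could be technical.

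An aminoacyl-tRNA synthetase joins an amino acid to its matching tRNA, which then carries it to the ribosome. Cytosolic and mitochondrial translation use separate enzymes for most amino acids, and both sets are encoded in the nucleus. The enzymes fall into classes I and II, which have unrelated catalytic folds. Several cytosolic synthetases sit in a multisynthetase complex held together by the scaffold proteins AIMP1, AIMP2 and EEF1E1. Transcription of many cytosolic synthetase genes is known to respond to ATF4, a transcription factor that is made when amino acids run short or translation initiation is limited.

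GNE itself, the enzyme that starts sialic acid synthesis and the target of the siRNA, was read by 1 probe set. Its log2 values were 11.12, 11.47 and 10.86 in control arrays 1 to 3 and 8.39, 9.86 and 9.57 in siGNE arrays 1 to 3, so that the groups did not overlap. GNE fell by 1.88 (SE 0.29) on the log2 scale to 27.2% of control, with 15.0%, 32.8% and 40.9% in the 3 pairs. The limma adjusted p was 0.0348 with the pair number as a block and 0.131 without it, and p was 0.1 in an exact two-sided permutation test, which cannot go lower with 3 arrays a group.

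The 6 arrays were alike in scale, with medians between 2.96 and 3.02 and 40.3% to 40.6% of probe sets above 4. All 8 epithelial markers looked at were strongly expressed, with log2 values from 10.31 to 15.45, and none was called changed. All 3 measured leukocyte and all 3 endothelial markers stayed at or below 3.02 on every array. Of 4 fibroblast markers, COL1A2, DCN and LUM did not pass a mean of 4, and COL1A1 rose by 0.71 (limma adjusted p 0.0441 with the block). In bulk RNA fewer cells of a type and less RNA per cell cannot be told apart.

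Many cytosolic synthetase transcripts were higher after GNE siRNA, among them that of GARS1, which serves mitochondria too. Of the 17 measured genes whose product works in the cytosol (GARS1 and KARS1 included), 10 rose and 1 fell at a limma adjusted p under 0.05 with the block. Of the 15 measured mitochondrial enzymes, 0 rose and 1 fell in that limma fit, where 1 on the higher side (HARS2) and 4 on the lower side had an unadjusted p under 0.05, against 13.7% and 18.8% of all tested genes at that threshold. Over all genes tested with 1 probe set each, 4.11% were called higher and 5.79% lower. The 58.8% of cytosolic genes that rose thus lie far from the share over all genes, and the share of falls does not. Among only 15 mitochondrial genes, a count of 0 called higher is not far from the share over all genes either. The median log2 difference was 0.59 for the cytosolic genes and -0.09 for the mitochondrial genes, against -0.02 over all 10733 tested genes. Of the 17 cytosolic genes 12 were higher in all 3 pairs, as were 27% of all tested genes, and of the 15 mitochondrial genes 6 were lower in all 3, as were 30.9% of all tested genes. By pair, the cytosolic median was 0.48, 0.62 and 0.58 and the mitochondrial median was -0.22, -0.12 and -0.21.

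**Figure D1:**
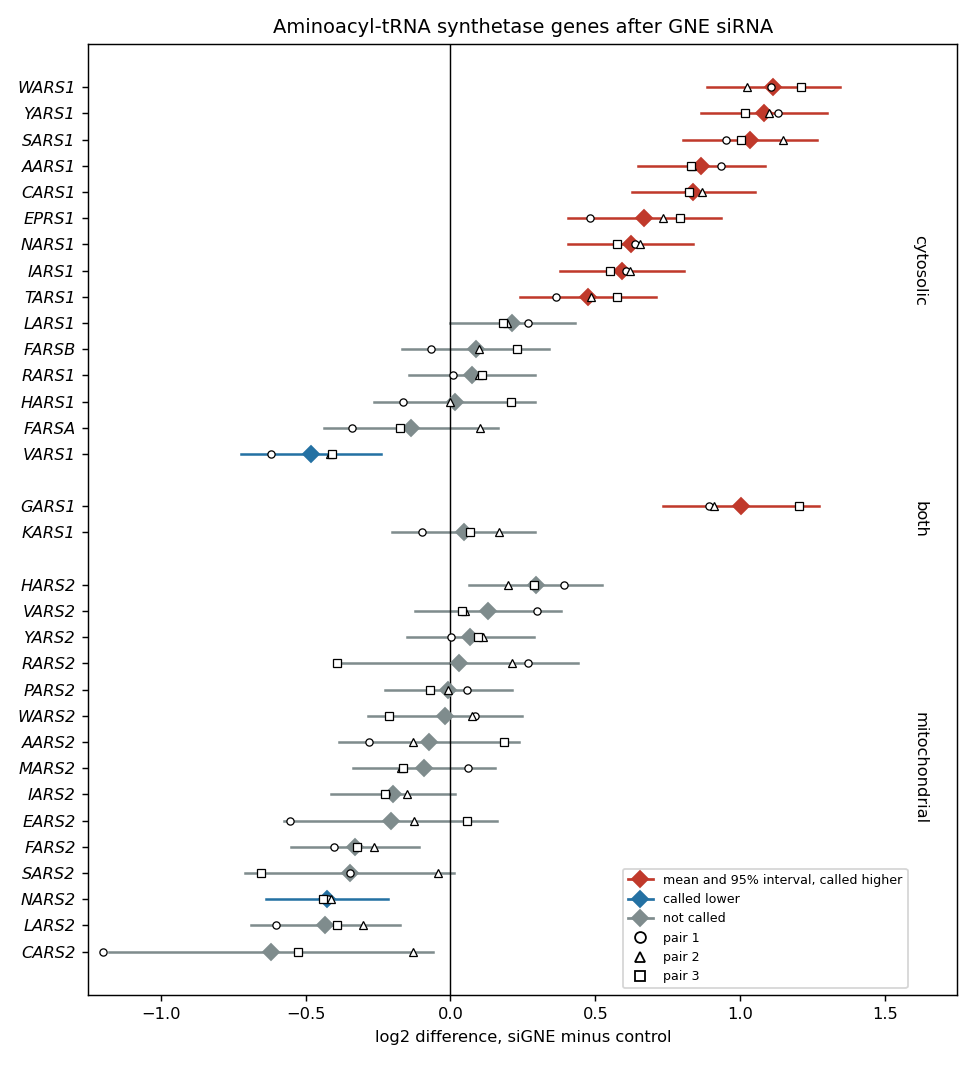
Log2 difference between siGNE and control for the 32 synthetase genes, grouped by compartment. Diamonds are means over 3 pairs with the 95% interval from limma with the pair block, and open symbols are the single pairs. The 10 genes called higher, from WARS1 at 1.11 to TARS1 at 0.48, are cytosolic or, for GARS1, shared by both compartments.

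The highest rises were those of the enzymes for tryptophan, tyrosine, serine and glycine, each about a doubling. WARS1, the tryptophanyl-tRNA synthetase, read 10.67, 10.34 and 10.64 in control arrays 1 to 3 and 11.77, 11.37 and 11.85 in siGNE arrays 1 to 3. Every siGNE value lay above the highest control value, and WARS1 rose by 1.11 (SE 0.09), or 2.16-fold (limma adjusted p 0.0200). YARS1, which charges tyrosine, read 10.75, 10.55 and 10.21 in control and 11.88, 11.65 and 11.23 in siGNE arrays. Number 3 was the lowest array in both groups, yet the pair differences of 1.13, 1.10 and 1.02 were close, and YARS1 rose 2.12-fold (log2 1.08, SE 0.08, limma adjusted p 0.0197). SARS1, which charges serine and also selenocysteine tRNA, read 11.23, 11.12 and 10.86 in control and 12.18, 12.27 and 11.86 in siGNE arrays. SARS1 rose by 1.03 (SE 0.09), or 2.05-fold (limma adjusted p 0.0230), with no overlap between the groups. GARS1, the glycyl-tRNA synthetase of both cytosol and mitochondria, read 11.64, 11.44 and 11.57 in control and 12.53, 12.35 and 12.78 in siGNE arrays. GARS1 rose 2.00-fold (SE 0.10 on the log2 scale, limma adjusted p 0.0242), with the widest step, 1.20, in pair 3.

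The enzymes for alanine, cysteine, asparagine and isoleucine, and the double enzyme for glutamate and proline, rose by 1.5 to 1.8 times. AARS1 for alanine had the tightest control values among these, at 11.19, 11.08 and 11.14, and read 12.13, 11.92 and 11.97 after siGNE. Its rise of 0.87 (SE 0.08), or 1.82-fold, passed with a limma adjusted p of 0.0241. CARS1 for cysteine read 10.58, 10.45 and 10.12 in control and 11.40, 11.32 and 10.95 in siGNE arrays, a rise of 0.84 (SE 0.08) with nearly equal steps of 0.82, 0.87 and 0.82 (limma adjusted p 0.0241). EPRS1, a single protein that charges both glutamate and proline, read 11.26, 10.83 and 10.92 in control and 11.74, 11.56 and 11.72 in siGNE arrays. The control array of number 1 stood above the other controls, pair 1 had the smallest step at 0.48, and EPRS1 rose by 0.67 (SE 0.10, limma adjusted p 0.0343).

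NARS1, the asparaginyl-tRNA synthetase, read 11.43, 11.22 and 11.10 in control and 12.06, 11.87 and 11.68 in siGNE arrays and rose by 0.62 (SE 0.08, limma adjusted p 0.0288). IARS1 for isoleucine read 12.97, 12.81 and 12.64 in control and 13.57, 13.43 and 13.19 in siGNE arrays and rose by 0.59 (SE 0.08, limma adjusted p 0.0302). TARS1 for threonine had the smallest called rise, 0.48 (SE 0.09, limma adjusted p 0.0449), from 13.61, 13.35 and 13.33 in control to 13.98, 13.83 and 13.91 in siGNE arrays. In all 10 genes that rose, each siGNE value lay above each control value, but these genes were picked by their call on the same arrays. Without that selection it held for 11 of the 17 cytosolic genes and 1 of the 15 mitochondrial genes, against 9.42% of all tested genes. The median rise of the 10 called genes was 0.86, 0.85 and 0.83 in pairs 1 to 3. The call itself favours genes with similar steps in the 3 pairs, so this evenness follows in part from the selection. GNE differed by -2.73, -1.61 and -1.29 in the same pairs, and whether the rises follow the fall of GNE was not tested.

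**Figure D2:**
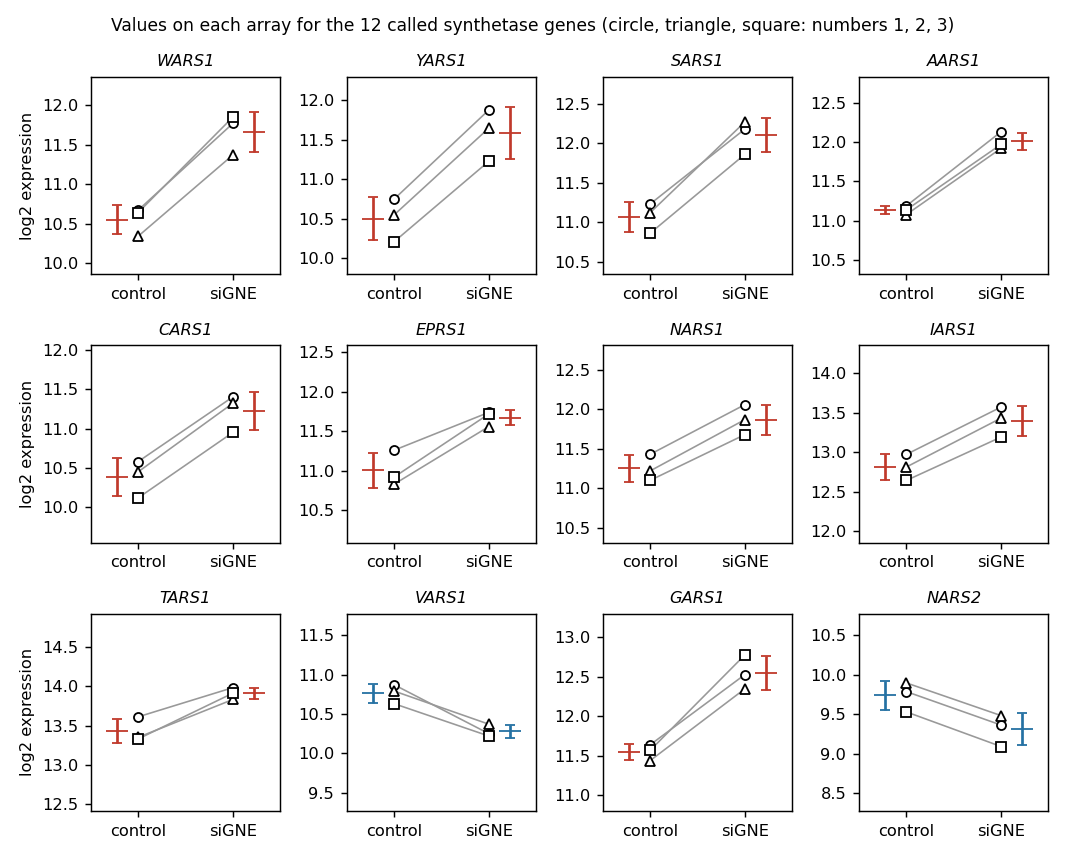
Log2 expression of the 12 called synthetase genes on each array. Lines join control and siGNE arrays of the same number, and the coloured marks beside them are group means with SD (n = 3), and every panel spans the same log2 range. The groups do not overlap in any of the 12 panels, and the lines of CARS1, NARS1, IARS1 and NARS2 run nearly parallel.

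VARS1, the cytosolic valyl-tRNA synthetase, went the other way. It read 10.87, 10.79 and 10.63 in control and 10.25, 10.37 and 10.22 in siGNE arrays. VARS1 fell by 0.48 (SE 0.09) to 71.6% of control, with a limma adjusted p of 0.0456, and all siGNE values lay below all control values, as they did for 13.9% of all tested genes.

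The other 6 cytosolic genes did not pass the test, and the upper ends of their 95% intervals reached at most 0.43 on the log2 scale. LARS1, the leucyl-tRNA synthetase, came closest with a difference of 0.21 (95% interval -0.0016 to 0.43, limma adjusted p 0.160) and did not overlap between groups. FARSA and FARSB, the subunits of the phenylalanine enzyme, differed by -0.14 (-0.44 to 0.16) and 0.09 (-0.17 to 0.34). HARS1 for histidine differed by 0.02 (-0.26 to 0.29) and RARS1 for arginine by 0.07 (-0.14 to 0.29). KARS1, the lysyl-tRNA synthetase of both compartments, differed by 0.05 (-0.20 to 0.29), with values between 14.05 and 14.38 on all arrays.

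Genes that rose came from both catalytic classes and from inside and outside the multisynthetase complex. Among class I enzymes of the cytosol, 5 of 8 measured rose and VARS1 fell, and among class II enzymes 6 of 10 rose, with EPRS1, which carries an active site of each class, counted in both. Of the 5 measured enzymes of the complex, EPRS1 and IARS1 rose and LARS1, RARS1 and KARS1 did not pass, with a median difference of 0.21. Of the 12 measured enzymes outside it, 8 rose, with a median of 0.73. The difference between these counts was not tested. Over all tested genes, 4.11% were called higher and 5.79% lower.

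Among mitochondrial enzymes, NARS2 for asparagine was the one that passed. It read 9.79, 9.90 and 9.53 in control and 9.36, 9.48 and 9.09 in siGNE arrays. NARS2 fell by 0.43 (SE 0.08) to 74.5% of control with a limma adjusted p of 0.0454, and its pair differences were -0.42, -0.41 and -0.44. With each array centred on its median, its difference was -0.38 and the limma adjusted p 0.0518.

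CARS2, the mitochondrial cysteine enzyme, had the most negative difference of all members, -0.62, but the pairs were far apart. It read 7.76, 7.72 and 7.59 in control and 6.56, 7.59 and 7.06 in siGNE arrays, so that number 1 supplied most of the difference, and the limma adjusted p was 0.132. LARS2 differed by -0.43 (limma adjusted p 0.0612), SARS2 by -0.35, FARS2 by -0.33, EARS2 by -0.21 and IARS2 by -0.20, and none of these passed. Leaving out 1 pair moved CARS2 to -0.33 and EARS2 to -0.033 (number 1) and SARS2 to -0.20 and EARS2 to -0.34 (number 3). Without number 2, CARS2 stood at -0.86 and SARS2 at -0.50. LARS2 passed when only probe sets with a mean above 6 were tested (limma adjusted p 0.0360) and with a variance trend (0.0495). HARS2, the mitochondrial histidine enzyme, stood at 0.29 (95% interval 0.06 to 0.52, limma adjusted p 0.101), with 9.44, 9.49 and 9.48 in control and 9.83, 9.68 and 9.77 in siGNE arrays, which do not overlap. VARS2 (0.13), YARS2 (0.07), RARS2 (0.03), PARS2 (-0.0075), WARS2 (-0.017), AARS2 (-0.07) and MARS2 (-0.09) lay near 0. RARS2 split by pair, at 0.27 and 0.21 in pairs 1 and 2 and -0.39 in pair 3.

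For most amino acids the cytosolic and the mitochondrial enzyme could be set side by side, in 15 comparisons. In 12 of the 15 the change in the cytosolic enzyme was more upward than that of its mitochondrial counterpart in all 3 pairs. The share of other gene pairs with such a gap was not computed. In 9 of the 15 the cytosolic gene was itself called higher on these arrays, and EPRS1 and FARS2 recur. The comparisons are therefore not independent of each other or of the calls. For asparagine the gap between the changes of NARS1 and NARS2 was 1.06, 1.07 and 1.01 in the pairs, and for isoleucine that of IARS1 and IARS2 was 0.83, 0.77 and 0.78. For cysteine, CARS1 and CARS2 had the widest mean gap of the 15, at 1.46 ± 0.52 (SD, n = 3 pairs). Valine and histidine ran the other way in all 3 pairs, with a mean gap of -0.61 between VARS1 and VARS2 and -0.28 between HARS1 and HARS2. Each gap was put to a two-sided exact permutation test over the 6 arrays, and 12 of the 15 reached p = 0.1, the smallest the design allows, with an adjusted p of 0.125 over the 15 comparisons. That test takes no account of the pairs, and one that flips signs within 3 pairs cannot go below 0.25, so the design could not bring any gap under 0.05 in either.

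**Figure D3:**
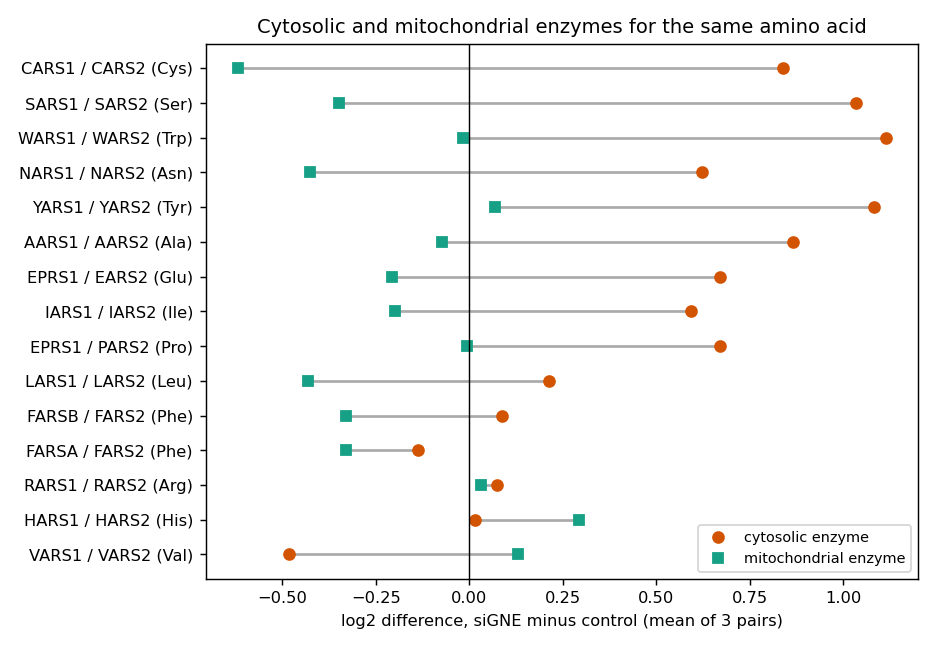
Mean log2 difference between siGNE and control for the cytosolic (circles) and mitochondrial (squares) enzyme of the same amino acid, ordered by the gap. EPRS1 is compared with both EARS2 and PARS2, and FARS2 with both FARSA and FARSB. The circle lies to the right of the square except for histidine and valine.

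For 14 members, 19 further probe sets were tested, and these bear on how far 1 probe set can be trusted. All 7 further probe sets of called members were called in the same direction, where 4.11% of all tested genes were called higher and 5.79% lower. They belong to only 5 of the 12 called genes. AARS1, IARS1, NARS1, TARS1, YARS1, GARS1 and NARS2 had no further probe set that was tested. Further probe sets read the same RNA on the same arrays, so they do not repeat the experiment. Those of CARS1 gave 0.88 and 0.88, those of EPRS1 0.97 and 0.70, that of WARS1 1.13 and that of VARS1 -0.48. In this further probe set of VARS1 the groups overlapped, at 8.30 to 9.86 in control and 7.70 to 9.37 in siGNE arrays. The further probe set of SARS1 read 5.42 in control and 7.75 in siGNE cells on average and rose by 2.33 (SE 0.10, limma adjusted p 0.0132), against 1.03 from the probe set used. Among members that were not called, 0 of 12 further probe sets passed in limma with the block, and 3 had an unadjusted p under 0.05.

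Of the 19 further probe sets, 5 pointed the other way from the gene's main probe set, and none of the 5 was called. The probe sets of LARS1 disagreed in sign, with 0.21 from the probe set used and 0.42, -0.04 and -0.31 from the others, the last of them prone to cross-hybridisation, so the direction of LARS1 is uncertain. Another 16 probe sets of members had a mean at or below 4 and were not tested. For TARS1, the mean over its probe sets, which takes in such a dim one, gave 0.50 and did not pass (limma adjusted p 0.0865). The same mean gave 0.53 for YARS1, which also has a dim probe set, and 1.68 for SARS1, and both were still called, while LARS1 stood at 0.071, FARS2 at -0.21 and LARS2 at -0.27 and did not pass.

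**Figure D4:**
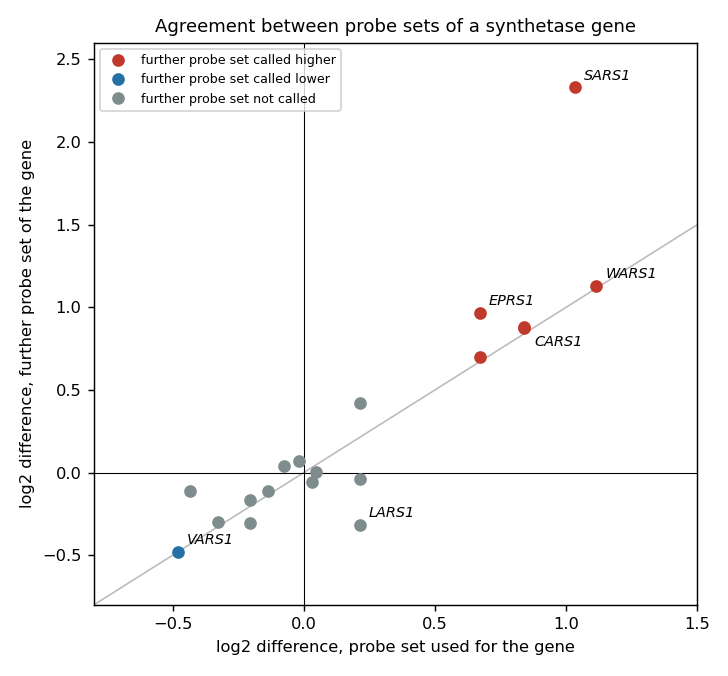
Log2 difference from the probe set used for a gene (horizontal) against that from a further tested probe set of the same gene (vertical), for 19 further probe sets of 14 synthetase genes. The grey diagonal marks equal values. Probe sets of called genes lie near or above the diagonal, with SARS1 at 1.03 and 2.33 farthest from it, and the others scatter around 0.

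Promoter windows were compared because many of the cytosolic genes rose together. RefSeq windows (GRCh38.p14) of 300 bases, 250 before the annotated start and 50 from it on, were at hand for 30 of the 35 genes. LARS1, VARS1, YARS1, AARS2 and VARS2 had none. The windows were searched on both strands for the letters TGATGNAA, the core of the amino acid response element that ATF4 binds with C/EBP partners. A match is a description of the letters and not a sign of binding.

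The letters were found in 8 of the 30 genes, against 2.70% of the 8874 tested genes with a window and 4.46% of all 27305 genes in the table. They occurred in 6 of the 9 members that rose and have a window (AARS1, CARS1, IARS1, NARS1, TARS1 and GARS1) and not in EPRS1, SARS1 or WARS1. They were in 0 of the 5 cytosolic members that did not pass, in 1 of 12 mitochondrial members that did not pass (YARS2), and not in the window of NARS2. MARS1, which has a match, has no value here. Over all tested genes with a window, matches were in 8.57% of 350 that rose, 2.49% of 523 that fell and 2.46% of 8001 that did not pass. For genes with several windows a match in any of them was counted, and CARS1, TARS1 and GARS1 each have a match in 1 of 2.

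The matched sites are shown with 11 bases on either side, each read 5′ to 3′ in the direction of the motif, with the motif in capitals, so that they can be compared.
AARS1: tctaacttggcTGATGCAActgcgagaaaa
CARS1: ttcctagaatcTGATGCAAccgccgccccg
IARS1: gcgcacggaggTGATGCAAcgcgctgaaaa
MARS1: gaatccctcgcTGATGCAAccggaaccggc
NARS1: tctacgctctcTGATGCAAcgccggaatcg
TARS1: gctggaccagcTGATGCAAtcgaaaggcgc
GARS1: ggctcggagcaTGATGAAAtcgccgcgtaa
YARS2: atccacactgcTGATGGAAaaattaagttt
The first 6 share the letters TGATGCAA exactly, while GARS1 and YARS2 differ from them at the N position. In 5 of the 8, those of CARS1, IARS1, MARS1, NARS1 and TARS1, the site lies at or near the annotated start, which is base 251 of the window. The site spans bases 249 to 256 in CARS1, 238 to 245 in IARS1, 247 to 254 in MARS1, 265 to 272 in NARS1 and 253 to 260 in TARS1. It spans bases 218 to 225 in GARS1, and it lies far upstream in AARS1 (64 to 71) and YARS2 (54 to 61).

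The windows of the 4 called genes with the largest rise among those with a match are shown whole, on the strand of the gene, with the match in capitals (TTNCATCA where it lies on the opposite strand). They are GARS1 at chr7:30594628-30594927 (+ strand), AARS1 at chr16:70289457-70289756 (- strand), CARS1 at chr11:3057374-3057673 (- strand) and NARS1 at chr18:57621787-57622086 (- strand).
GARS1: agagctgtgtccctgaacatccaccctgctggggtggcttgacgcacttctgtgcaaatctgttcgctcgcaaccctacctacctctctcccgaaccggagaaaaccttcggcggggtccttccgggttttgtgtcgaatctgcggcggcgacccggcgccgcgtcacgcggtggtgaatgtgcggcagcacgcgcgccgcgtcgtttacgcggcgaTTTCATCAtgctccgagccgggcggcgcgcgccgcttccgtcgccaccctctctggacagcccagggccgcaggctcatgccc
AARS1: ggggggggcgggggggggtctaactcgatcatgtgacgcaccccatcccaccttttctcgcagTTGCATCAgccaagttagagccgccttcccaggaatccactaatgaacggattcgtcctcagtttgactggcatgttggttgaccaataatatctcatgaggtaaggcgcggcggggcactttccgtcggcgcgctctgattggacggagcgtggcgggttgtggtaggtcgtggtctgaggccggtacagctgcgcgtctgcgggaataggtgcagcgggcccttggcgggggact
CARS1: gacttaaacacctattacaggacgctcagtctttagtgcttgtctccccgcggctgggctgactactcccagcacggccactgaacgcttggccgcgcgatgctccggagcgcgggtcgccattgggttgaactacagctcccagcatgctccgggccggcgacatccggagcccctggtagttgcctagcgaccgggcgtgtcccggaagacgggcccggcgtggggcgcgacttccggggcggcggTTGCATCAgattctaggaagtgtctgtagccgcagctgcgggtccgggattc
NARS1: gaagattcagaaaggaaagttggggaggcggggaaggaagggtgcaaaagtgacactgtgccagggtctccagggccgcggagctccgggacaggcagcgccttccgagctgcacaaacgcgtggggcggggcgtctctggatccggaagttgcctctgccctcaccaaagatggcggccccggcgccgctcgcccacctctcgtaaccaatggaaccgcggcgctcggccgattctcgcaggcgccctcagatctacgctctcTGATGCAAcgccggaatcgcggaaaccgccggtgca
HARS1 and HARS2 are neighbours on opposite strands whose windows overlap by 184 bases, and neither holds the letters. HARS1 differed by 0.02 and HARS2 by 0.29, and neither passed.

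A list of 23 other genes of tRNA charging and use gave values for 16, of which 2 rose and 1 fell (4.11% and 5.79% over all tested genes), with a median difference of -0.02. XPOT, the exportin that carries tRNA out of the nucleus, read 12.25, 12.09 and 12.13 in control and 13.16, 12.76 and 12.66 in siGNE arrays. XPOT rose by 0.71 (SE 0.11, limma adjusted p 0.0344), and its further probe set rose by 0.47 (limma adjusted p 0.0409). GATC, a subunit of the amidotransferase that makes glutaminyl-tRNA in mitochondria, which lack a glutaminyl-tRNA synthetase of their own, read 8.52, 8.76 and 8.58 in control and 9.44, 9.26 and 9.11 in siGNE arrays. GATC rose by 0.65 (SE 0.12, limma adjusted p 0.0422), its further probe set stood at 0.58 and did not pass (limma adjusted p 0.0532), and the other subunits of that enzyme, GATB at -0.35 and QRSL1 at -0.07, did not pass.

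AIMP1, the one scaffold of the multisynthetase complex with a value, differed by 0.03 (limma adjusted p 0.869), and its further probe sets by -0.16 and -0.26, which did not pass either. EEF1A1, the elongation factor that takes charged tRNA to the ribosome, fell by 0.49 (limma adjusted p 0.0385) in a probe set with overlapping groups, but its 4 bright probe sets prone to cross-hybridisation, at 15.6 to 16.2, differed by 0.04 to 0.09 and did not pass. TUFM (-0.08) and TSFM (-0.05), the mitochondrial elongation factors, did not pass, although a dimmer probe set of TSFM fell by 0.47 (limma adjusted p 0.0422). TRNT1, which adds the CCA end to tRNA, differed by 0.0031, and a dimmer probe set of it fell by 0.55 (limma adjusted p 0.0380).

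The calls depend on the block, on the filter on low values and on having 3 pairs. Without the block 0 of the 32 members passed in limma, as did 0.028% of all tested genes, with adjusted p from 0.0784 to 0.193 for the 10 genes that rose, at 0.169 for VARS1 and at 0.312 for NARS2. At an unadjusted p under 0.05 that fit held 14 members, the 12 called ones among them, beside 16.3% of all tested genes. No member passed with no filter on low values or without any 1 of the 3 pairs. Each of the 12 called members had the same sign in all 3 pairs. Their direction could therefore not change in these fits and adds nothing to the calls.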

How the data were processed

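The data are 6 Affymetrix arrays, 3 of control and 3 of siGNE cells, each made from 300 ng of total RNA per the labels' protocols. Log2 expression values of 54675 probe sets were deposited, made by the authors with GCRMA per the submitters' processing notes. Its version is not given in the sources used here, and the values themselves show the log2 scale. GCRMA models background, so differences near the array median of about 3 can be understated. Arrays have no read depth, and their number limits the precision.

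Gene names came from the annotation of the platform, with symbols updated through a RefSeq gene table (GRCh38.p14). Of 54675 probe sets, 41097 had 1 gene symbol, 1801 several and 11777 none listed, and none with several was used for a gene. The main test was limma 3.58.1 (R 4.3.3), lmFit and eBayes, siGNE minus control with the title number as a block (2 residual degrees of freedom), and Benjamini-Hochberg adjustment over the 22085 probe sets with a mean above 4 that were not among the 62 control probe sets. Calls needed an adjusted p below 0.05. The numbers were checked as pairs: deviations from the group means correlated at 0.576, 0.709 and 0.833 between arrays of the same number, above a limit of 0.1, and between -0.639 and 0.17 otherwise. Control 1 with siGNE 2 (0.14) and control 2 with siGNE 1 (0.17) also lay above that limit, so the limit alone does not mark pairs. Each array correlated most with the array of its own number in the other group. The script was tested on simulated data. The alternatives were no block, other filters, a floor at 4, quantile normalization, median centring, a variance trend, robust variances, the mean of a gene's probe sets, an adjusted p under 0.1 and leaving out each pair.

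The members and gene lists were chosen with earlier results of these data known. Values on every array are given for called members and for those beyond 0.5 in size, promoters for up to 4 called genes with a motif match, and every member by its difference. Protein sequences were not used here.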

Additional observations from a re-analysis of the deposited data

How the results depend on the processing

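Without the replicate block, 0 members, 0 mitochondrial members and 0 companion genes were called in either direction, 9 probe sets were called higher and 0 lower, and GNE stood at -1.88 with a limma adjusted p of 0.131. With no filter on low values all these counts were 0 and GNE had an adjusted p of 0.265. A minimum mean of 6 gave 2 mitochondrial falls, 1374 higher and 1944 lower probe sets, and a variance trend gave 2 such falls and 1373 higher probe sets. Median centring gave 1 member lower and 0 mitochondrial falls, and averaging probe sets gave 0 companion falls. At an adjusted p under 0.1, 4 members were lower, 3 of them mitochondrial, with 2068 probe sets higher and 2755 lower. Without replicate 1, 2 or 3 every count, over members, companions and all probe sets, was 0 to 0 in limma, with 5022 to 5529 probe sets and 13 to 16 members at an unadjusted p under 0.05. Those fits have 1 residual degree of freedom fewer, GNE ranged from -2.17 to -1.45 (adjusted p 0.0665 to 0.144), the cytosolic median from 0.58 to 0.61 and the mitochondrial median from -0.19 to -0.063. The signs that turned all belonged to members that were not called and lay near 0. They were PARS2 (0.038) and WARS2 (0.019) under quantile normalization, PARS2 (0.034) and WARS2 (0.024) under median centring, FARSB (-0.0094) and WARS2 (0.017) with averaged probe sets, and, with 1 pair left out, AARS2 (from -0.20 to 0.029), RARS2 (-0.089 to 0.24), KARS1 (-0.015 to 0.12), HARS1 (-0.083 to 0.11), PARS2 (-0.039 to 0.024) and WARS2 (-0.069 to 0.080). The cause of these shifts was not tested. All 12 called members kept their call with a minimum mean of 6, a floor at 4, quantile normalization, a variance trend and robust variances, and 11 of 12 with median centring (NARS2 lost) and with averaged probe sets (TARS1 lost).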
